A study of Mus musculus with 2 samples.

Results

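The genes described here handle zinc in the cell: the metallothioneins Mt1, Mt2 and Mt3, the metal-sensing transcription factor Mtf1, the zinc exporter Slc30a1 and the zinc importers Slc39a14 and Slc39a8. They were chosen by name, with a higher Mt1 level in fibroblasts of the library labelled Elf1 knockout already known from these data. Differences between the libraries in these genes are therefore given as descriptions, with no test, and support nothing further. All 7 were listed in both deposited matrices, out of 28695 genes listed in either and 23197 listed in both.

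Single-cell RNA-seq was made from the proximal colon, distal colon and rectum of C57BL/6 mice aged 8 to 10 weeks. Mice of both groups received DSS (dextran sulfate sodium), which damages the gut lining and is a common model of colitis. The groups were wild type (WT) and Elf-1-/-, labelled Elf-1 KO, a knockout of the ETS-family transcription factor Elf1. Each library pooled the colonic cells of 3 mice on a Singleron GEXSCOPE microchip, and no library from mice without DSS was analysed here. With 1 library per label and no map from cells to mice, spread between mice could not be measured. The 95% intervals below cover counting error only, and the part of the label, the pooled mice or the library in a difference cannot be told apart.

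After filtering, 7718 WT cells and 9504 cells of the library labelled knockout remained, with medians of 2029.5 and 2638 UMIs per cell (a UMI, or unique molecular identifier, tags 1 captured RNA molecule). Elf1 was counted at 191.5 CPM in WT and 180.3 CPM in the library labelled knockout, a ratio of 0.942 (0.909 to 0.976). The sources used here do not say which part of the gene was deleted, so the RNA does not check the label. CPM is a gene's UMIs per 1000000 UMIs of the cells summed. The libraries shared 44 cell barcodes among the cells kept. Marker genes named 13 cell classes, of which 9 had at least 100 cells in each library and were compared. The classes differed in their make-up: a fibroblast cluster led by Lpl, Sfrp2 and Wnt4 held 69.8% of WT fibroblasts and 0.253% of those labelled knockout, and a cluster led by Ccl11, Cxcl5 and Il11 held 9.24% and 54.9%. Among smooth muscle cells and pericytes, a cluster led by Cnn1 and Lmod1 held 63.3% and 1.14%, and one led by Enpp2 and Serpina3c 19.8% and 87.3%. Among B cells, a cluster led by Fcer2a held 51.4% and 4.65%. Epithelial cells, not compared, numbered 1068 in WT and 70 in the other library. Their cluster led by Dmbt1 and Lypd8 held 910 and 13 cells, that led by Zg16 131 and 0, and that led by Chgb and Chga 27 and 57. The cells were clustered again without the 7 genes, a check added after the data were seen. Of the 7, only Mt3 had been among the variable genes that formed the clusters. In the library labelled knockout, 801 of the 2763 fibroblasts then fell into clusters that the markers did not name. So did 910 of its 1232 smooth muscle cells and pericytes. In WT the numbers were 66 of 1212 and 47 of 409.

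Metallothioneins are small cysteine-rich proteins that bind zinc and copper in the cytosol, and their genes are switched on by metals, oxidants, glucocorticoids and inflammatory cytokines. Mtf1 senses free zinc and binds metal response elements in the promoters of Mt1, Mt2 and Slc30a1. Slc30a1 carries zinc out of the cell across the plasma membrane. Slc39a14 and Slc39a8 are related importers that carry zinc, iron and manganese into the cytosol, and both are known to be induced in inflammation.

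The metallothionein genes lie together on chromosome 8 (GRCm38, GENCODE annotation, plus strand): Mt3 (ENSMUSG00000031760) from 94152607 to 94154146, Mt2 (ENSMUSG00000031762) from 94172664 to 94173568 and Mt1 (ENSMUSG00000031765) from 94179082 to 94180327. Mt2 and Mt1 are 5513 bases apart. Their annotated transcripts share no identical stretch longer than 20 bases. The other members lie on separate chromosomes: Slc30a1 (ENSMUSG00000037434) on chromosome 1 from 191906767 to 191913247, Slc39a8 (ENSMUSG00000053897) on chromosome 3 from 135825279 to 135888572, Mtf1 (ENSMUSG00000028890) on chromosome 4 from 124802104 to 124849800, and Slc39a14 (ENSMUSG00000022094) on the minus strand of chromosome 14 from 70303469 to 70351425.

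The promoters of Mt1, Mt2 and Slc30a1 are shown because all 3 genes are known targets of Mtf1, while of these Mt1 and Mt2 but not Slc30a1 were higher in the library labelled knockout in fibroblasts. Each runs from 250 bases before the RefSeq start to 30 bases after it (RefSeq, GRCm38.p6, 5′ to 3′, plus strand). Capitals mark the letters of the metal response element, searched as TGCACNC and TGCGCNC on both strands. The stretches are chr8:94178839-94179118 for Mt1, chr8:94172368-94172647 for Mt2 and chr1:191906531-191906810 for Slc30a1.
Mt1: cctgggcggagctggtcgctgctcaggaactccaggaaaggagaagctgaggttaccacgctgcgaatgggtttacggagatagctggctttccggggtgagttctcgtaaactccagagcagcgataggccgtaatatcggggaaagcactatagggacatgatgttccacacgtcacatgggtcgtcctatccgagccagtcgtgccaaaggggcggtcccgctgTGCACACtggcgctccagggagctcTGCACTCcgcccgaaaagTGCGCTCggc
Mt2: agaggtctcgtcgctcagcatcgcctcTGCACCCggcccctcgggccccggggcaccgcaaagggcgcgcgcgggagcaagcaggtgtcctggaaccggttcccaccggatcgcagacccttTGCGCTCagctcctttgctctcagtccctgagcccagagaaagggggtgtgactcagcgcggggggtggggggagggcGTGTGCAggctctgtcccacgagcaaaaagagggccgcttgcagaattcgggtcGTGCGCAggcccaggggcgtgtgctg
Slc30a1: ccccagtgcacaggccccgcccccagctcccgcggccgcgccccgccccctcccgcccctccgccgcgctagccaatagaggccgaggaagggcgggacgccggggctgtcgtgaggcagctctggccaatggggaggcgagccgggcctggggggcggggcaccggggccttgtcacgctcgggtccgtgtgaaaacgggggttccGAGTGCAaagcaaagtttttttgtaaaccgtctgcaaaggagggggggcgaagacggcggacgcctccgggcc
In the full window of 300 bases (to 50 bases after the start), Mt1 held 3 matches, beginning at positions -23, 2 and 20 relative to the start. Mt2 held 4, at -223, -128, -50 and 4, the last pair on the opposite strand. Slc30a1 held 2, at -43 and 30, both on the opposite strand, and the later one lies beyond the stretch shown. At least 1 match was present in 25.7% of 32851 such mouse promoter windows, at least 2 in 7.11%, at least 3 in 1.97% and at least 4 in 0.517%. Of the 7 members 6 had a window. Mt3 held 1 match and Mtf1 held 0. Slc39a8 has 2 windows, with 0 and 1 match. The antioxidant response element, searched as TGACNNNGC on both strands, was matched in 12.4% of windows and in those of Mt2, Slc30a1 and the first of Slc39a8. A match is a run of letters and was not tested as a binding site. Mt1 has 3 annotated transcripts but 1 window. Sequence outside a window, or around another start of the same gene, was not searched, so an absent match holds for the window only.

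Mt1 RNA exceeded its WT level in each of the 9 classes compared, from 2.40-fold in plasma cells to 38.4-fold in endothelial cells. Over all kept cells it made up 0.186% of UMIs in WT, the 52nd most abundant gene, and 2.13% in the other library, the 4th. In fibroblasts, the connective tissue cells of the mucosa, Mt1 stood at 6839 CPM (6770 to 6909) in WT and 38527 CPM (38432 to 38622) in the library labelled knockout, a ratio of 5.63 (5.58 to 5.69). Fibroblasts had the highest Mt1 level of the 13 classes in both libraries and held 67.3% of its UMIs in WT and 78.8% in the other. Mt1 and Mt2 together made up 0.961% of WT fibroblast UMIs and 5.10% of those labelled knockout.

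The order of Mt1 levels in WT ran from fibroblasts over smooth muscle cells and pericytes (1693 CPM), epithelial cells (1176), macrophages and monocytes (1026) and plasma cells (724.4) to endothelial cells (316.8), T and innate lymphoid cells (245.9), B cells (151.1) and neutrophils (105.8), with glia, 35 cells, left out of the order. Plasma cells, dendritic cells (715.1 CPM) and mast cells (710.1) had overlapping intervals, as did B cells and neutrophils. In the library labelled knockout, smooth muscle cells and pericytes followed fibroblasts at 27877 CPM, then glia (19581), endothelial cells (12170), macrophages (6849), dendritic cells (4255), epithelial cells (4123) and neutrophils (1907), with overlapping intervals of dendritic and epithelial cells. B cells (1766 CPM), plasma cells (1740) and T cells (1652) came close together there, and the intervals of B and plasma cells and of plasma and T cells overlapped. Endothelial cells thus stood below plasma cells in WT and above macrophages in the other library.

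**Figure D1:**
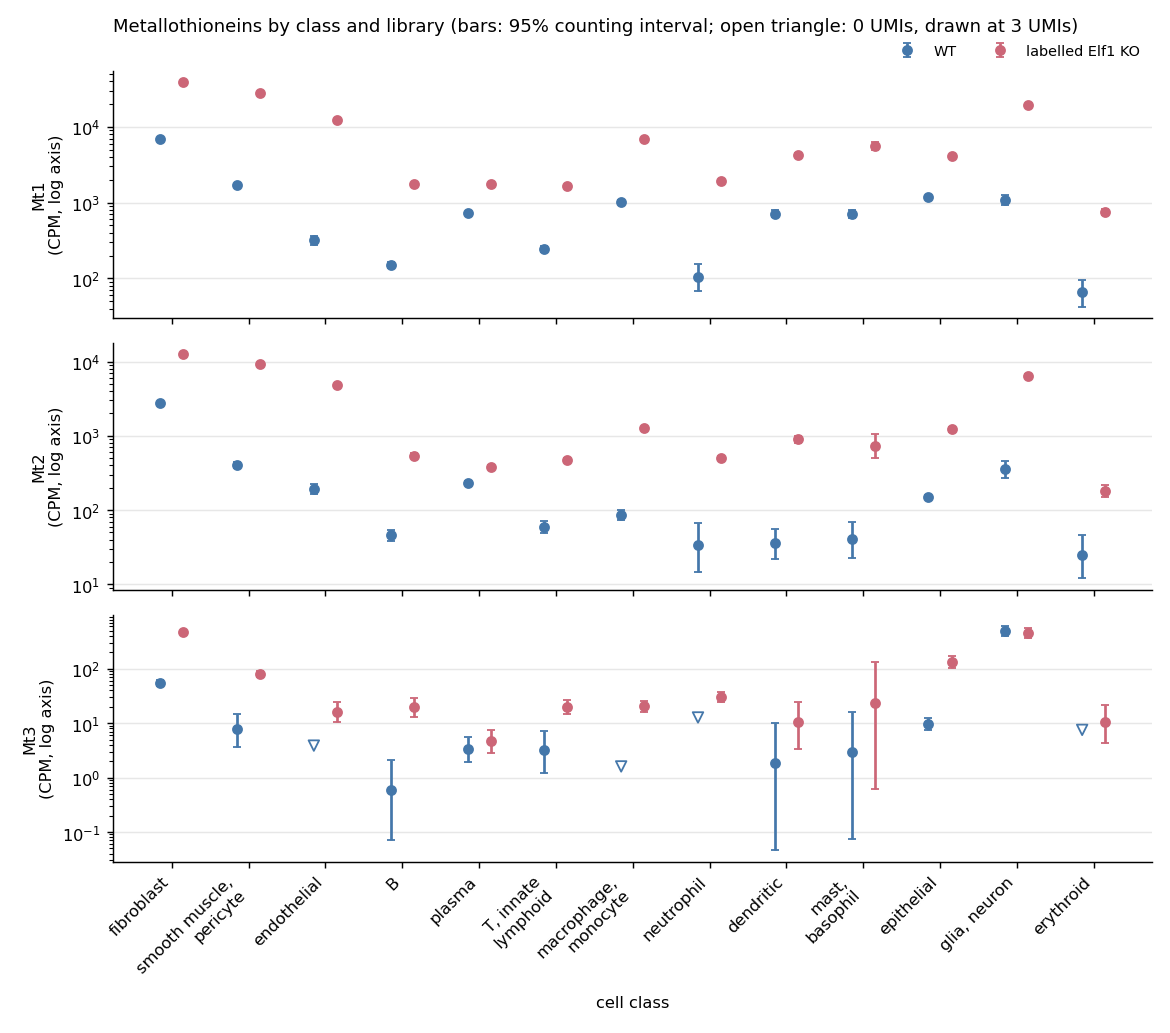
CPM (log axes) of Mt1, Mt2 and Mt3 in 13 cell classes, WT in blue and the library labelled Elf1 knockout in red. Bars are 95% counting intervals and open triangles mark a class with 0 UMIs, drawn at 3 UMIs. Mt1 and Mt2 are higher in red in every class shown, and the Mt3 points of glia lie at 488.9 and 452.2 CPM, from 7 and 16 cells with a UMI.

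The Mt1 ratio was 38.4 (33.9 to 43.8) in endothelial cells, 18.0 (12.2 to 27.9) in neutrophils and 16.5 (15.7 to 17.2) in smooth muscle cells and pericytes. It was 11.7 (10.6 to 12.9) in B cells, 6.72 (6.09 to 7.42) in T and innate lymphoid cells, 6.68 (6.37 to 6.999) in macrophages and 5.95 (5.34 to 6.64) in dendritic cells. Fibroblasts, where the level was highest, thus had the next to lowest ratio after plasma cells, with an interval that overlapped that of dendritic cells. The neutrophil ratio rests on 25 UMIs in 165 WT cells. Neutrophils also differed in make-up: at the finer clustering, a cluster led by Ngp and Camp held 7 WT cells and 490 labelled knockout. Within the 17 clusters that held at least 50 cells of each library, the Mt1 ratio ran from 2.40 to 35.8, and its interval lay above 1 in all 17. In smooth muscle cells and pericytes the log2 ratio fell from 4.04 to 3.11 when their shared clusters were weighted equally, and in neutrophils it was 5.02 with doublets kept.

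Mt2, the neighbouring gene, was likewise higher in all 9 classes. In fibroblasts it stood at 2772 CPM (2728 to 2816) in WT and 12506 CPM (12452 to 12560) in the library labelled knockout, 4.51-fold (4.44 to 4.59) higher. The ratio was 24.8 (21.1 to 29.3) in endothelial cells, 24.7 (15.8 to 40.8) in dendritic cells and 22.6 (20.6 to 24.8) in smooth muscle cells and pericytes. It was 14.9 (7.51 to 34.5) in neutrophils, 14.8 (12.7 to 17.5) in macrophages, 11.9 (10.0 to 14.3) in B cells, 7.84 (6.44 to 9.63) in T cells and 1.66 (1.54 to 1.80) in plasma cells. Plasma cells were thus the 1 compared class under 2-fold. In WT the next levels of Mt2 after fibroblasts were those of smooth muscle cells and pericytes (407.0 CPM), plasma cells (231.4) and endothelial cells (193.2), the last pair with overlapping intervals, and macrophages held 86.0. In the library labelled knockout smooth muscle cells and pericytes held 9176 CPM, endothelial cells 4785 and macrophages 1275, while plasma cells, at 384.8, were the lowest compared class. With equal weight for shared clusters the log2 ratio in smooth muscle cells and pericytes was 3.485, against 4.495 over all their cells, and in neutrophils it was 3.284 as a mean over cells, against 3.892.

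The UMIs of Mt1 per UMI of Mt2 differed between classes in WT, at 2.47 in fibroblasts, 1.64 in endothelial cells, 7.93 in epithelial cells, 11.9 in macrophages, 17.4 in mast cells, 19.7 in dendritic cells, 3.32 in B cells, 4.10 in T cells and 3.13 (1.37 to 8.02) in neutrophils. In the library labelled knockout it was, in the same order, 3.08, 2.54, 3.36 (70 epithelial cells), 5.37, 7.58 (19 mast cells), 4.75, 3.25, 3.51 and 3.79. The epithelial values come from unlike mixes of clusters in the 2 libraries. Over the 9 classes listed here, which are not the 9 compared, the ratio thus ran from 1.64 to 19.7 in WT and from 2.54 to 7.58 in the other library. Of the compared classes left out of this list, smooth muscle cells and pericytes had 4.16 and 3.04, and plasma cells 3.13 and 4.52.

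Free RNA can bring UMIs of an abundant gene into cells that do not express it, and Mt1 was the 4th most abundant gene of the library labelled knockout. As a yardstick, the summed UMIs per cell of Col1a1, Col1a2, Col3a1 and Dcn, fibroblast matrix genes, were set beside Mt1, each as a percent of its fibroblast level in the same library. In B cells of the library labelled knockout Mt1 stood at 2.365 UMIs per cell, 1.04% of the fibroblast level, and the matrix genes at 0.802%. T cells had 1.66% and 1.22%, and neutrophils 1.76% and 1.05%. In WT these classes had 0.740% and 0.340%, 1.64% and 0.366%, and 0.490% and 0.326%. In the library labelled knockout their Mt1 thus came with fibroblast transcripts at 0.802% to 1.22% of the fibroblast level, and the part of free RNA in their ratios was not tested. Endothelial cells had 21.1% for Mt1 and 2.79% for the matrix genes, macrophages 11.0% and 2.44%, plasma cells 9.30% and 2.20%, and glia 35.9% and 8.49%. There Mt1 stood more than 4 times as high, relative to fibroblasts, as the matrix genes. In WT the same 4 classes had 3.46% and 0.805%, 12.0% and 0.711%, 33.98% and 1.42%, and 17.5% and 3.64%. The 70 epithelial cells of the library labelled knockout had 13.2% for Mt1 and 13.3% for the matrix genes. WT epithelial cells had 24.9% and 1.40%.

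Smooth muscle cells and pericytes of the library labelled knockout had 34.8% of the fibroblast level of Mt1 and 37.0% of that of the matrix genes, against 15.3% and 19.1% in WT. Their Mt1 and their matrix transcripts were thus higher together, and the part of fibroblast RNA in that ratio was not tested. With the lowest class of each library taken off every class, the log2 ratio of Mt1 was 2.49 in fibroblasts (2.494 before), 5.41 in endothelial cells (5.264 before), 2.66 in macrophages (2.739 before) and 1.85 in T cells (2.748 before). For Mt2 it was 2.08 in T cells (2.972 before). B cells and neutrophils gave no value, since each was the lowest class of 1 library.

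**Figure D2:**
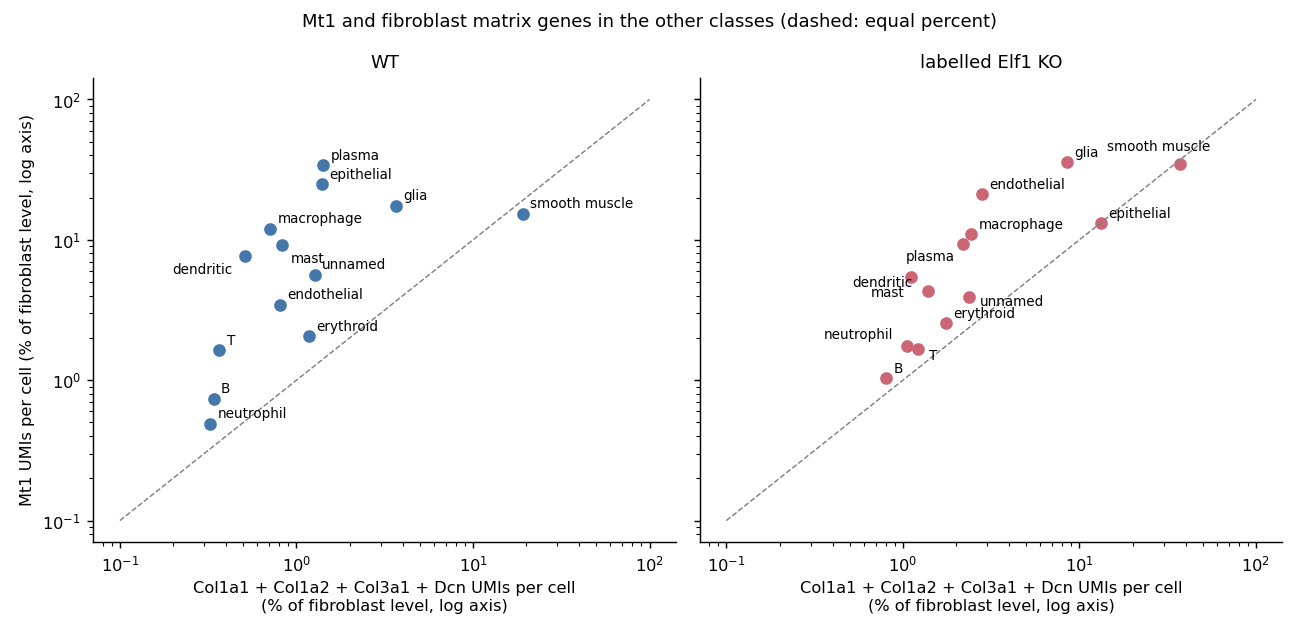
Mt1 UMIs per cell against the summed UMIs per cell of Col1a1, Col1a2, Col3a1 and Dcn in each class other than fibroblasts, both as percent of the fibroblast level in the same library (log axes), WT in the left panel and the library labelled knockout in the right. On the dashed line both percents are equal; in the right panel B cells, at 0.802% and 1.04%, lie near it and endothelial cells, at 2.79% and 21.1%, lie above it.

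Cell by cell, the shift of Mt1 in fibroblasts was seen from the lowest to the highest cells. Per 10000 UMIs of a cell, the 10th percentile, median and 90th percentile of Mt1 were 6.045, 37.6 and 174.7 in WT and 107.9, 371 and 718.6 in the library labelled knockout. None of the 2763 fibroblasts labelled knockout lacked an Mt1 UMI, which allows a share of up to 0.109%, against 43 of 1212 WT fibroblasts (3.55%). Of the fibroblasts labelled knockout, 80.4% lay above the WT 90th percentile and 98.3% above the WT median. The distributions still overlapped, since 19.4% of WT fibroblasts lay above the 10th percentile of the other library.

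Each of the 4 fibroblast clusters with at least 50 cells per library showed the difference. The Mt1 ratio was 8.86 in the cluster led by Ptn and Thbs2, 4.55 in that led by Ccl11 and Cxcl5, 4.12 in that led by Mmp10 and Mmp13, and 3.67 in that led by Ptx3 and Il33. In WT the median cell of these clusters held 12.6, 53.9, 42.4 and 86.8 Mt1 UMIs per 10000, and in the library labelled knockout 389.5, 404.6, 230.2 and 436.7. The cluster led by Mmp10 and Mmp13, genes of matrix-degrading proteases, was the lowest of the 4 in the library labelled knockout. With the 4 clusters weighted equally, the ratio was 4.78 for Mt1 and 3.47 for Mt2.

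**Figure D3:**
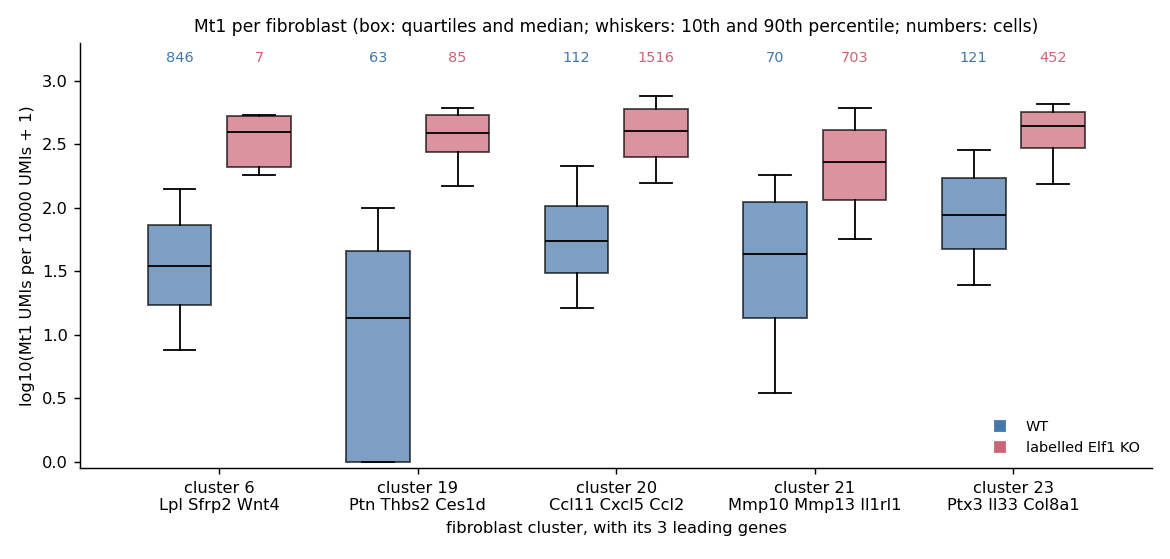
Mt1 UMIs per 10000 UMIs of a cell (log10 of the value plus 1) in the 5 fibroblast clusters, WT in blue and the library labelled knockout in red. Boxes span the quartiles with the median as a line, whiskers reach the 10th and 90th percentile and the numbers count cells. Each red median lies above the blue one beside it, and the cluster at the left holds 846 WT cells but 7 of the other library.

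Across single fibroblasts, Mt1 and Mt2 (log1p of UMIs per 10000) were correlated at r = 0.71 over 1212 WT cells and r = 0.817 over 2763 cells labelled knockout, within 1 library each. After Mt2, Serpina3n, a secreted protease inhibitor, had the highest r with Mt1 in both libraries, at 0.267 and 0.43. In WT it was followed by Medag (0.232), Sod2, the mitochondrial superoxide dismutase (0.229), and Ccl7 (0.228), values too low in such sparse counts to read further. In the library labelled knockout the chemokines Cxcl13 (0.413) and Cxcl12 (0.397) and the Wnt antagonist Sfrp1 (0.378) came next, and Mmp10 (-0.432), Cpm (-0.401) and Mmp13 (-0.389) had the lowest r. Of the 30 genes with the highest r in each library, 10 were shared, among them Mt2, Serpina3n, Ccl11 and Timp1.

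Mt3, best known from brain, was seen in fewer cells. Fibroblasts held 54.2 CPM (48.2 to 60.7) in WT and 463.5 CPM (453.2 to 474.1) in the library labelled knockout, a ratio of 8.55 (7.62 to 9.64). A UMI of Mt3 was seen in 7.67% of WT fibroblasts and 30.1% of those labelled knockout, and in 4.01% and 19.5% after each cell was thinned to 1000 UMIs. In B cells of the same libraries, the shares were 0.0896% and 2.28% (0.111% and 1.82% thinned), at median depths of 1356 and 1152 UMIs against 4256.5 and 5633 in fibroblasts. Mt3 was unevenly spread over fibroblasts: the cluster led by Mmp10 and Mmp13 held 68.8 CPM in WT and 889.8 in the other library, and that led by Ccl11 and Cxcl5 27.2 and 480.6. The cluster led by Ptx3 and Il33 held 21.9 CPM in the library labelled knockout, with 0 UMIs in its 121 WT cells. With 3 UMIs in place of 0, its ratio was 5.13 (1.69 to 25.4). The Mmp10 cluster, which was lowest for Mt1, was thus highest for Mt3 in the library labelled knockout. Mt3 was among the genes used to form the clusters and was itself a leading gene of that one. The log2 ratio over fibroblasts was 3.10, 3.97 with clusters weighted equally and 2.68 with the members left out of the clustering.

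Glia, with 35 WT cells and 55 labelled knockout, were too few to be compared, and their Mt3 stood at 488.9 CPM from 85 UMIs in WT and 452.2 CPM from 104 UMIs in the other library (ratio 0.925, 0.688 to 1.25). These UMIs lay in 7 and 16 cells. After thinning, 6.67% and 17.0% of the deeper cells (30 and 47) held an Mt3 UMI, at 0.1 and 0.255 UMIs per 1000, so no likeness is read from the CPM. The same cells held 1087 CPM of Mt1 in WT and 19581 CPM in the other library. Epithelial cells had 67 Mt3 UMIs in WT (9.585 CPM) and 68 in the library labelled knockout (133.1 CPM). A UMI was seen in 2.715% of 1068 and 47.1% of 70 cells, and in 0.246% and 7.02% of the deeper cells after thinning. In the epithelial cluster led by Chgb and Chga, Mt3 stood at 55.3 CPM in 27 WT cells and 135.8 CPM in 57 of the other library. In the remaining classes Mt3 was sparse. Macrophages had 0 UMIs in WT and 73 in the library labelled knockout. With 3 UMIs in place of 0, the ratio was 12.8 (4.20 to 63.4). Neutrophils had 0 and 80, a ratio of 2.38 on the same footing, with a counting interval of 0.786 to 11.8 that held 1. Relative to fibroblasts, Mt3 stood at 2.73% in macrophages of the library labelled knockout, beside 2.44% for the matrix genes, and at 2.31% beside 1.05% in neutrophils. The part of free RNA in these Mt3 values was not tested. T cells had 6 and 44 UMIs, a ratio of 6.22 (2.64 to 17.9), with a log2 ratio of 1.16 after thinning against 2.64 before. Smooth muscle cells and pericytes had 9 and 283, a ratio of 10.3 (5.33 to 22.7), but the log2 ratio of 3.36 was 0.55 when the members were left out of the clustering and 1.45 at the finer clustering. That difference thus rests on cells whose class depends on the clustering. Mt4, the remaining metallothionein, had 1 and 2 UMIs in all.

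Mtf1, the regulator, showed no common direction across classes. It stood at 17.3 CPM (14.0 to 21.2) in WT fibroblasts and 15.1 CPM (13.3 to 17.1) in those labelled knockout, a ratio of 0.871 (0.685 to 1.12). In 6 of the 8 classes with at least 50 UMIs the interval of the ratio held 1, among them smooth muscle cells (1.05, 0.624 to 1.82), B cells (0.991, 0.643 to 1.495), T cells (1.12, 0.703 to 1.78) and macrophages (0.942, 0.628 to 1.43). Endothelial cells were the exception above 1, at 20.6 CPM from 16 UMIs and 39.1 CPM from 58 UMIs, a ratio of 1.90 (1.08 to 3.54). Plasma cells were the exception below, at 7.78 CPM from 37 UMIs and 3.71 CPM from 15 UMIs, a ratio of 0.476 (0.243 to 0.889). Its highest level in WT was in epithelial cells, at 35.8 CPM, and the interval of each class overlapped that of the next in the order. The lowest class held 5 UMIs in WT (neutrophils) and 0 in the other library (erythroid cells), and taking it off gave log2 ratios of 0.51 in fibroblasts, 0.65 in macrophages, 1.46 in smooth muscle cells, 1.75 in endothelial cells, 2.16 in B cells and 2.33 in T cells. Thinning gave 1.48 in smooth muscle cells and 0.40 in neutrophils (-0.25 before). No direction is given for Mtf1 from these data.

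Slc30a1, the exporter, had its highest level in endothelial cells of both libraries, at 51.5 CPM from 40 UMIs in WT and 51.3 CPM from 76 UMIs in the library labelled knockout. That ratio was 0.995 (0.670 to 1.499), in the class where the Mt1 ratio was highest. Epithelial cells (27.2 CPM) and macrophages (24.0) came next in WT, with overlapping intervals. In fibroblasts Slc30a1 was lower in the library labelled knockout, at 11.1 CPM (8.52 to 14.3) against 5.62 CPM (4.53 to 6.90), a ratio of 0.505 (0.362 to 0.710). Macrophages held 24.0 and 15.7 CPM, a ratio of 0.653 (0.433 to 0.990). Their log2 ratio of -0.61 was -1.32 after thinning and -0.51 with shared clusters weighted equally. Within macrophages the interval held 1 in the cluster led by C1qc (ratio 0.753, 0.469 to 1.21). It also held 1 in that led by Chil3 (0.611, 0.251 to 1.58). T cells had 9.73 and 17.0 CPM, at 1.74 (0.968 to 3.26) with an interval that held 1. Within endothelial cells, the cluster led by Plvap and Fabp4, genes of blood capillaries, held 58.2 and 79.8 CPM and that led by Lyve1 and Ccl21a, genes of lymphatic vessels, 40.6 and 17.6, from 12 UMIs each. The exporter thus lay below its WT level in fibroblasts and, with an interval that ended at 0.990, in macrophages. The median log2 ratio of all genes was also below 0 there, at -0.34 in fibroblasts and -0.11 in macrophages. In endothelial cells the interval of the exporter held 1, while Mt1 was higher in all 3 classes.

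Slc39a14, the importer with the higher counts, was found in fibroblasts, endothelial cells and macrophages. In WT fibroblasts and endothelial cells it stood at 79.4 and 78.6 CPM with overlapping intervals, followed by macrophages at 30.4. The library labelled knockout had 157.1 CPM in fibroblasts, a ratio of 1.98 (1.79 to 2.20), and 186.9 CPM in endothelial cells, a ratio of 2.38 (1.80 to 3.19), and these levels no longer overlapped. Macrophages held 30.4 and 59.1 CPM, a ratio of 1.94 (1.44 to 2.65). Smooth muscle cells and pericytes held 14.85 and 84.95 CPM, a ratio of 5.72 (3.51 to 9.96). In smooth muscle cells the log2 ratio was 2.52, and 1.21 with shared clusters weighted equally. With the same weights the ratio was 1.43 in fibroblasts, 1.96 in endothelial cells and 1.51 in macrophages. In macrophages the log2 ratio of 0.96 was 0.43 as a mean over cells and 1.06 under TMM scaling. As counted over all cells, the interval lay above 1 in all 4 of these classes, the compared classes with at least 50 UMIs.

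The difference in Slc39a14 was uneven within classes. Among fibroblasts, the cluster led by Mmp10 and Mmp13 held 42.3 and 140.0 CPM (ratio 3.31, 2.02 to 5.83) and that led by Ccl11 and Cxcl5 71.4 and 132.6 CPM (ratio 1.86, 1.37 to 2.59), whereas that led by Ptx3 and Il33 held 219 and 241.9 CPM (ratio 1.11, 0.930 to 1.32) and that led by Ptn and Thbs2 87.3 and 84.3 CPM (ratio 0.966, 0.523 to 1.85). Macrophages led by C1qc and C1qb had 14.2 and 56.3 CPM (ratio 3.96, 2.39 to 6.94), and those led by Chil3 and F13a1, 64.5 and 62.5 CPM (ratio 0.969, 0.664 to 1.44). Among the fibroblast and macrophage clusters, those higher in WT thus had the ratios nearer 1. Endothelial cells led by Lyve1 and Ccl21a had 196.3 and 341.1 CPM (ratio 1.74, 1.30 to 2.36), and those led by Plvap 6.24 and 56.1 CPM, from 3 and 45 UMIs (ratio 8.996, 2.89 to 45.3).

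Slc39a8, the related importer, was sparse, with 192 and 496 UMIs in all kept cells. Fibroblasts were the 1 compared class with at least 50 UMIs, at 12.0 CPM (9.32 to 15.3) in WT and 27.0 CPM (24.5 to 29.6) in the library labelled knockout, a ratio of 2.24 (1.73 to 2.94). Its fibroblast and epithelial levels in WT overlapped (12.0 CPM each). The level was higher in the cluster led by Mmp10 and Mmp13, at 13.2 and 81.5 CPM from 5 and 305 UMIs (ratio 6.16, 2.61 to 19.1), and in that led by Ptx3 and Il33, at 2.84 and 12.2 CPM from 2 and 44 UMIs (ratio 4.28, 1.12 to 36.5), while the cluster led by Ccl11 and Cxcl5 held 10.2 and 10.1 CPM (ratio 0.993, 0.438 to 2.78). The log2 ratio over fibroblasts was 1.16 as counted, 1.89 with clusters weighted equally and 0.001 when the members were left out of the clustering, where 801 of the 2763 fibroblasts labelled knockout were no longer in the class. The Slc39a8 difference thus rests on which cells are counted as fibroblasts, though Slc39a8 itself was not among the genes that formed the clusters. Of the 4 clusters of the library labelled knockout, the Mmp10 cluster was the highest in Mt3 and Slc39a8 and the lowest in Mt1 and Mt2.

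**Figure D4:**
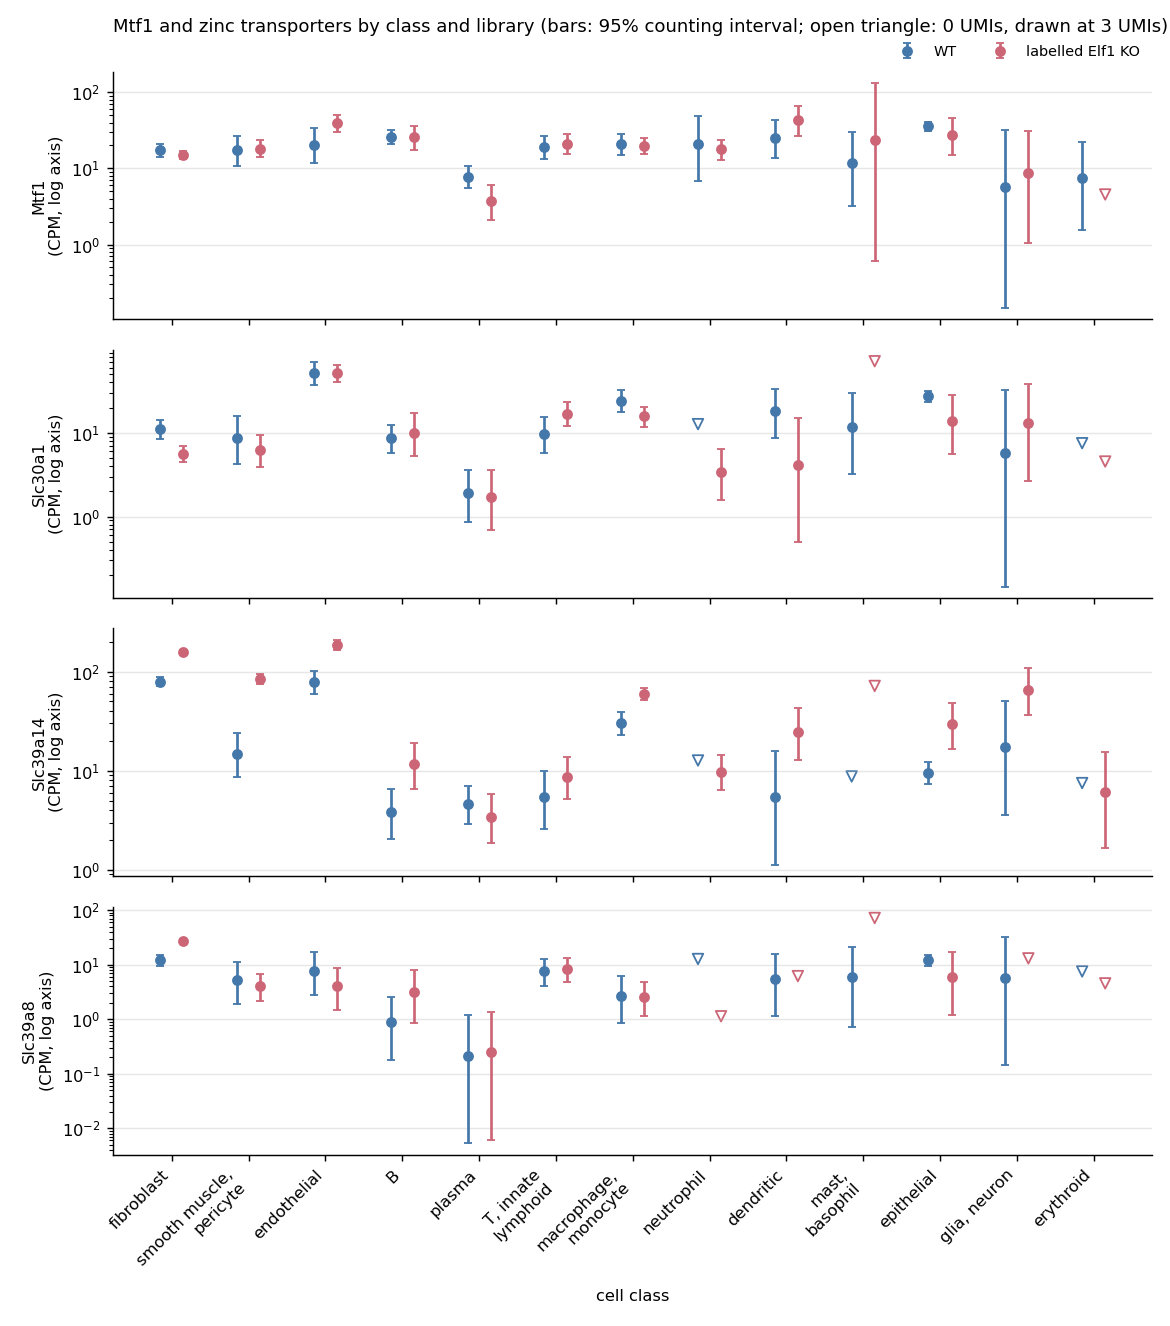
CPM (log axes) of Mtf1, Slc30a1, Slc39a14 and Slc39a8 in 13 cell classes, WT in blue and the library labelled Elf1 knockout in red, with 95% counting intervals as bars and classes with 0 UMIs as open triangles drawn at 3 UMIs. Slc30a1 in endothelial cells lies at 51.5 and 51.3 CPM, and Slc39a14 in fibroblasts at 79.4 and 157.1 CPM.

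Counted over all classes, members at least 2-fold higher in the library labelled knockout were set beside the share of all genes with at least 50 UMIs that passed the same fold. In fibroblasts all 7 members had at least 50 UMIs and 4 were at least 2-fold higher (Mt1, Mt2, Mt3 and Slc39a8) and 0 lower, where 3.34% of 11402 genes were at least 2-fold higher and 13.2% at least 2-fold lower. In smooth muscle cells and pericytes it was 4 of 5, with a background of 5.95% higher and 11.4% lower, and in endothelial cells 3 of 5, with 4.09% higher and 6.53% lower. Macrophages had 3 of 6 (background 5.09% higher and 6.47% lower) and T cells 3 of 5 (5.16% higher). B cells had 2 of 3 (4.74% higher), neutrophils 3 of 4 (11.5% higher), Mt3 among them by the value at 3 WT UMIs, and dendritic cells 2 of 2 (13.3% higher). Plasma cells had 1 of 3 higher, where 4.79% of genes were higher, and 1 of 3 lower (Mtf1), where 5.94% were lower. Nothing is read from these counts, since the members were chosen with results of this contrast known. Mt1 was at least 2-fold higher in 9 of the 9 classes, Mt2 in 8, Mt3 in 5 of the 5 with enough UMIs (in neutrophils with 3 UMIs in place of 0 and an interval that held 1), Slc39a14 in 2 of 4, Slc39a8 in 1 of 1, and Mtf1 and Slc30a1 in 0.

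The wider family of zinc transporters, Slc30a exporters and Slc39a importers, lay near the other genes in fibroblasts. Of its 24 genes, 15 had at least 50 UMIs there, 1 was at least 2-fold higher (Slc39a8) and 1 at least 2-fold lower (Slc39a11, 10.8 and 3.301 CPM, ratio 0.307, 0.208 to 0.451). The median log2 ratio of the 15 was -0.38, and that of all 11402 genes -0.34. Others are named after their values were seen. Next to Slc39a8 and Slc39a14 came Slc39a6, at 38.1 and 54.8 CPM (ratio 1.44, 1.23 to 1.68). Slc39a13, a zinc carrier of the secretory pathway needed by connective tissue, stood at 52.4 and 26.6 CPM (ratio 0.508, 0.436 to 0.591), and Slc39a1 at 107.7 and 96.1 CPM (ratio 0.892). In smooth muscle cells and pericytes 1 of 12 was at least 2-fold higher and in endothelial cells 1 of 8, Slc39a14 each time, and in macrophages 0 of 10. Other transporters had their highest level elsewhere: Slc39a4, the intestinal zinc importer, at 113.9 CPM and Slc39a5 at 27.2 CPM in WT epithelial cells, and Slc39a10 at 64.4 CPM in WT endothelial cells.

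**Figure D5:**
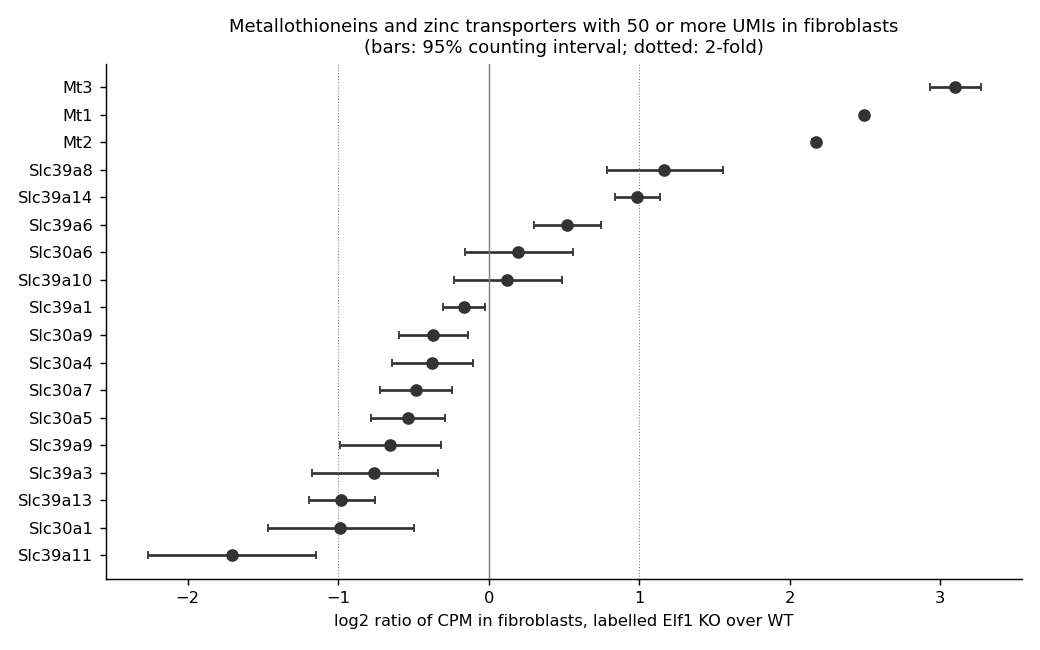
Log2 ratio of CPM in fibroblasts, library labelled Elf1 knockout over WT, for the metallothioneins and zinc transporters with at least 50 UMIs, with 95% counting intervals as bars. Dotted lines mark 2-fold. Mt3, Mt1 and Mt2 lie at 3.10, 2.49 and 2.17, and most transporters lie between the dotted lines.

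Lists of genes that answer to signals known to act on metallothioneins were described in the same fibroblasts by counts of at least 2-fold differences. Of all 11402 genes there, 3.34% were at least 2-fold higher and 13.2% at least 2-fold lower. The copper handling list had 0 of 11 higher and a median log2 ratio of 0.04, with Steap4, a metalloreductase, at 1.83 (1.71 to 1.97) and Sco2 at 1.71 as its highest ratios and Sco1 (0.670) and Commd1 (0.717) as its lowest. The oxidant response list had 3 of 12 higher and a median of 0.55. These were the cystine transporter Slc7a11, from 4 and 337 UMIs (28.2, 10.9 to 104.2), the haem-degrading enzyme Hmox1 (8.07, 7.30 to 8.94) and the glutathione synthesis enzyme Gclc (3.57, 3.01 to 4.27). Osgin1 (0.564) and Prdx1 (0.933) had its lowest ratios. Thus 9 of the 12 stayed within 2-fold, while Slc7a11 and Hmox1 had higher ratios than Mt1.

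The interleukin 6 and STAT3 response list had 6 of 14 higher and a median of 0.81: the acute phase genes Saa1 (5.27), Saa2 (32.5, from 1 and 97 UMIs, 5.70 to 1296), Saa3 (3.79), Hp (5.96) and Lcn2 (8.21, 7.84 to 8.61) and the interleukin 1 antagonist Il1rn (2.35). All 6 encode secreted proteins, and Saa1 and Saa2 are near-identical genes between which reads may be split. The feedback inhibitor Socs3 had the lowest ratio, at 0.538 (0.518 to 0.559), with Junb at 0.574. The glucocorticoid list had 0 of 12 higher and a median of -0.34, with Glul (1.89) and Fkbp5 (1.79) highest and Per1 (0.548) and Dusp1 (0.563) lowest. The hypoxia list had 3 of 12 higher (Ankrd37, 4.78, Bnip3, 2.75, and Ndrg1, 2.13) and a median of 0.24, with P4ha1 (0.578) and Vegfa (0.902) lowest. In fibroblasts the glucocorticoid median thus lay at that of all genes, -0.34, and the medians of the other 4 lists above it. In the other classes given below it lay above that of all genes. The list ratios are over whole classes, whose cluster make-up differed between the libraries, and are not given within clusters. Whether any of these signals acted on the metallothioneins was not tested. In smooth muscle cells and pericytes, endothelial cells and macrophages, 5.95%, 4.09% and 5.09% of all genes tested were at least 2-fold higher. In that order, the interleukin 6 list had 8 of 13, 4 of 11 and 3 of 12 genes at least 2-fold higher. The oxidant list had 2 of 10, 4 of 11 and 4 of 11, with Nqo1 at least 2-fold lower in the first class. The glucocorticoid list had 3 of 12, 1 of 10 and 2 of 10. The hypoxia list had 4 of 10, 1 of 8 and 2 of 10. The copper list had 1 of 8, 1 of 7 and 2 of 9, with Steap4 among them each time. Medians in that order were 1.46, 0.38 and 0.44 for the interleukin 6 list and 0.04, 0.55 and 0.69 for the oxidant list. They were 0.21, 0.17 and 0.31 for the glucocorticoid list and 0.47, 0.20 and -0.02 for the hypoxia list. The copper list had -0.09, 0.22 and 0.21, beside -0.19, -0.08 and -0.11 for all genes.

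Over the 24 sums of a class in a library with at least 40 cells, the genes with a pattern most like Mt1 were Mt2 (Pearson r = 0.948 of log2 CPM plus 1), Cemip (0.904), a hyaluronan-degrading protein, Pappa (0.901), a protease of insulin-like growth factor binding proteins, Sult5a1 (0.883), Scara5 (0.882), a ferritin receptor, Saa3 (0.873), Mt3 (0.873) and Gpx3 (0.870), out of 7814 genes. All are descriptions over sums that share 2 libraries. Among the members, Slc39a14 reached 0.803, Slc30a1 0.334, Slc39a8 0.307 and Mtf1 0.135. Cemip and Pappa stood at 333.8 and 201.5 CPM in WT fibroblasts and at 997.1 and 800.4 CPM in those labelled knockout.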

How the data were processed

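The deposited values are counts, whole UMIs per gene and barcode, not normalized by the authors. The submitters' processing notes name cutadapt 1.17, STAR 2.6.1a, featureCounts 2.0.1 and GRCm38. Deposited barcodes all had 500 UMIs or more. Those with under 200 detected genes, or over 25% of UMIs from mitochondrial genes, were removed. Scrublet (scanpy 1.11.5) marked 230 doublets in the library labelled knockout and 0.025% of WT barcodes, where the 5% with the highest scores (406) were removed instead. Both libraries were clustered together (2000 variable genes, 30 principal components, Leiden resolution 1.0, 28 clusters) and clusters named from marker genes, by at least 3 markers among the 50 leading genes. UMIs were summed per class as CPM with exact Poisson intervals, shares with Clopper-Pearson intervals and ratios with exact conditional binomial intervals, at 95% (scipy 1.17.1). A count of 0 was taken as 3 for the ratio and its interval, and no fold is given where both counts are at most 3. The ratio interval was run on simulated Poisson counts, the model it assumes, so that run cannot show how it holds where UMIs clump in few cells. Members and gene lists were chosen with earlier results of these data known. Of each list, the 2 highest and 2 lowest ratios in fibroblasts are named, and by correlation the 8 genes most like Mt1. Alternatives were TMM scaling (edgeR 4.0.16), other totals, equal cell weight, thinning, doublets kept, a 10% mitochondrial limit, resolution 2.0 and a background subtraction. A further 2 were added after the data were seen.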

Additional observations from a re-analysis of the deposited data

Results flagged for a closer look

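Mtf1 differed in opposite directions in 2 classes: its log2 ratio was 0.93 (0.925) in endothelial cells and -1.07 in plasma cells, each with a counting interval that excluded 0. The difference between the classes was not tested, and each rests on 1 library per label and under 60 UMIs a library.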

How the results depend on the processing

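Of 377 values recomputed under the alternatives, 307 were judged the same, 70 moved and 0 turned direction among those whose interval excluded 0. A log2 ratio was judged the same if it stayed within the counting interval of the value reported. Numbers of classes at least 2-fold higher, also among the 377, were judged by their fold from the number reported. For Mt1 in fibroblasts the log2 ratio of 2.494 was 2.827 under TMM scaling, 2.608 over a total without mitochondrial, ribosomal, haemoglobin and immunoglobulin genes, Mt1 and Mt2, 2.539 as a mean over cells, 2.558 after thinning, 2.672 with doublets kept, 2.617 with the members left out of the clustering and 2.257 with shared clusters weighted equally. For Mt2 there the value of 2.174 was, in the same order, 2.507, 2.288, 2.223, 2.228, 2.359, 2.309 and 1.796, and 2.289 at resolution 2.0. TMM factors in fibroblasts were 1.12 and 0.891. The number of classes with Mt1 at least 2-fold higher was 9 and with Mt2 8 under all alternatives that covered all 9 classes. Equal cluster weights covered 4 classes, and the subtraction of the lowest class gave 7 and 6 of the 7 classes it could be computed for. No paired analysis was possible because each label has 1 library. Leaving the members out of the clustering and weighting shared clusters equally were chosen after the data were seen. Depth limits Mtf1, Slc30a1 and Slc39a8 most: outside fibroblasts Slc39a8 had at most 18 UMIs in a compared class of either library, and differences of such counts were not detectable at this depth.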
